A study of Mus musculus with 10 samples.

Results

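Perineuronal nets are lattices of extracellular matrix around certain neurons, and 10 genes that encode their proteoglycans, link proteins and tenascins are described here in whole brains of Aldara-treated and control mice. The genes are the lecticans Bcan, Ncan, Vcan and Acan, the link proteins Hapln1, Hapln2 and Hapln4, the tenascins Tnr and Tnc, and the transmembrane proteoglycan Cspg4. They were chosen from the known components of the net with the measured differences between Aldara-treated and control brains already known, Bcan being among the lowest of them. Their values in this contrast are therefore given as a description, with no p-value for any member, and the counts of members past the threshold of the fit over all probesets are given for reference only. Each of the 10 genes was read by 1 probeset of its own, out of 28856 probesets in the deposited table, of which 23410 carried at least 1 gene symbol and were compared.

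The brains came from female C57BL/6 mice of 6 to 8 weeks. Aldara contains 5% imiquimod, a ligand of the innate immune receptors TLR7 and TLR8 that is widely used on mouse skin as a model of psoriasis-like inflammation. In the Aldara group (n = 5) 80 mg of the cream was put on the shaved back every 24 h for 5 applications, and in the control group (n = 5) the same amount of an aqueous cream was used. Perfused brains were taken 24 h after the last application, and RNA from 1 brain was hybridised to 1 array. No gene was altered in either group. Because the control cream was an aqueous cream, imiquimod and the other constituents of Aldara cannot be told apart in this comparison.

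In the adult brain the lecticans carry chondroitin sulfate chains and bind the long sugar hyaluronan at one end and tenascin-R at the other. Link proteins clamp the lectican to hyaluronan, and trimers of tenascin-R tie several lecticans together, which gives the net its mesh. Nets are best known around fast-spiking interneurons that contain parvalbumin, where they mature as the period of high plasticity closes. Looser matrix of related composition lies between other cells and around the nodes of Ranvier.

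The lectican and link protein genes stand side by side in the mouse genome. In the RefSeq gene table for GRCm38.p6, Bcan neighbours Hapln2 on chromosome 3, Ncan neighbours Hapln4 on chromosome 8, Acan neighbours Hapln3 on chromosome 7 and Vcan neighbours Hapln1 on chromosome 13, with 0 annotated genes between the members of each pair. A RefSeq window of the 250 bases before the transcription start was found for 9 of the 10 genes. The windows of Bcan and its neighbour Hapln2, and that of Ncan, are shown because Bcan had the lowest difference of the group, Hapln2 lies next to it, and Ncan is a second lectican of the nervous system, in which the groups overlapped. All 3 windows lie on the minus strand of GRCm38.p6, at chr3:88000357-88000606 for Bcan, chr3:88027512-88027761 for Hapln2 and chr8:70120845-70121094 for Ncan, and are written 5′ to 3′ on the strand of the gene. Capitals mark matches to CCAAT, to the GC box GGGCGG and to the TATA word TATAAA on either strand.
Bcan: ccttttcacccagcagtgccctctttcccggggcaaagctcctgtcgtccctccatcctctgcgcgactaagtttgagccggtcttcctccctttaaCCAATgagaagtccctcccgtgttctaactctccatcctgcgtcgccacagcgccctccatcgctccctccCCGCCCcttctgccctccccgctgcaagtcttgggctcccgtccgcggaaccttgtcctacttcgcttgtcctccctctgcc
Hapln2: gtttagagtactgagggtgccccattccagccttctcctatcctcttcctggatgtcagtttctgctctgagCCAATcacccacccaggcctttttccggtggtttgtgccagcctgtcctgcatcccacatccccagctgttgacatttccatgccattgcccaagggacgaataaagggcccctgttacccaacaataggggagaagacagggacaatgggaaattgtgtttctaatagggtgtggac
Ncan: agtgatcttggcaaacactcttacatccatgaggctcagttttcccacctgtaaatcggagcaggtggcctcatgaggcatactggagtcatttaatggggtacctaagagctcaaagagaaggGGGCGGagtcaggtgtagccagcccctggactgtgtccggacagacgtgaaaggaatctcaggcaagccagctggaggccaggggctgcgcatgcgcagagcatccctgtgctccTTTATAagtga

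The Bcan window held 1 CCAAT match and 1 GC box match, whereas the Hapln2 window held 1 CCAAT match only. In the Ncan window there was 1 GC box match and 1 TATA match. Among all 32851 RefSeq windows of this length, 33.8% held CCAAT, 32.7% held the GC box and 12.4% held TATAAA. The STAT word TTCNNNGAA, present in 7.02% of all windows, and the AP-1 word TGANTCA, present in 6.75%, were not matched in any member's window. Such matches describe letters in a window and not binding of a factor.

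Bcan encodes brevican, the most brain-restricted lectican, made by astrocytes and neurons in a secreted and a membrane-anchored form that the deposited value does not separate. Its log2 RMA value was 10.79, 10.71, 10.73, 10.80 and 10.85 in the control brains and 10.08, 10.25, 9.996, 10.07 and 10.09 in the Aldara-treated brains. All Aldara-treated brains lay below all controls, and the highest of them, replicate 2, was still well short of the lowest control. The mean was 10.77 ± 0.056 in control and 10.10 ± 0.093 in Aldara-treated brains (SD, n = 5 each), a log2 difference of -0.68 (SE 0.046) that places the Aldara level at 62.6% of the control level. Ordered by difference, Bcan stood in position 9 from the lowest among the 23410 probesets.

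Ncan encodes neurocan, a lectican of the developing and adult nervous system. Its values were 10.44, 10.49, 10.52, 10.54 and 10.55 in control and 10.43, 10.54, 10.42, 10.45 and 10.29 in Aldara-treated brains. The groups overlapped, with replicate 5 of the Aldara group the lowest brain and replicate 2 of that group level with the highest controls. The log2 difference was -0.08 (SE 0.043).

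Vcan encodes versican, a lectican that is also found in blood vessels and in many tissues outside the brain. It measured 8.73, 8.85, 8.69, 8.66 and 8.84 in control brains and 8.75, 8.79, 8.77, 8.82 and 8.91 in Aldara-treated brains. The groups overlapped over most of their range, and the log2 difference was 0.05 (SE 0.046).

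Acan encodes aggrecan, the lectican regarded as the defining component of the mature net. Values of 6.91, 6.79, 6.87, 6.96 and 6.82 were recorded in control brains and 6.65, 6.72, 6.64, 6.69 and 6.74 in Aldara-treated brains. The groups did not overlap, although the gap between the nearest brains was small. The log2 difference was -0.18 (SE 0.036), or 88.2% of the control level. The mean level of the Acan probeset stood at the 26.8th percentile of all probesets compared, and its distance from background is unknown because no detection calls were used.

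**Figure D1:**
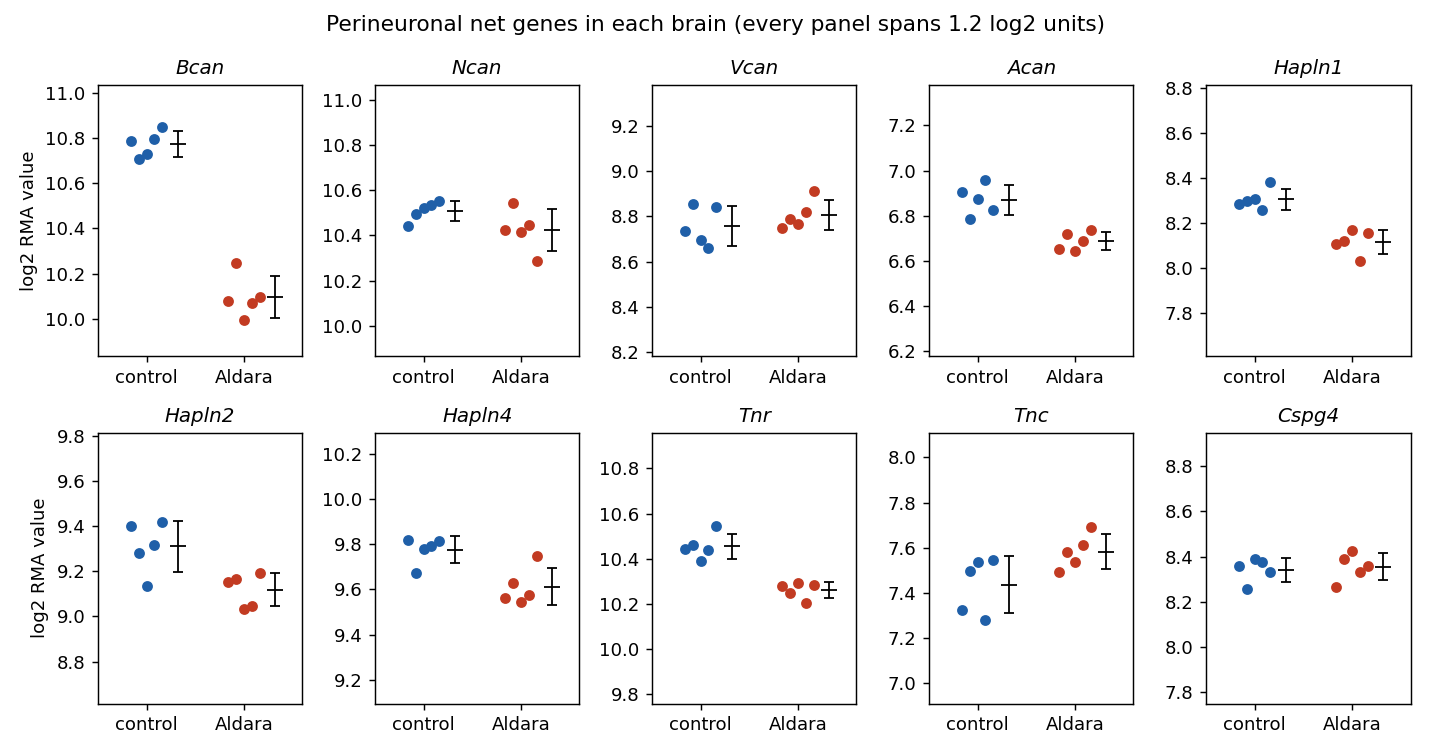
Log2 RMA value of each net gene in every brain, with 5 control and 5 Aldara-treated brains as points and the group mean as a line. Bcan, Acan, Hapln1 and Tnr show no overlap between the groups, and the gap is widest for Bcan (means 10.77 and 10.10).

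Among the link proteins, Hapln1 encodes the form that stabilises lecticans on hyaluronan in cartilage and in nets. It measured 8.29, 8.30, 8.31, 8.26 and 8.38 in control brains and 8.11, 8.12, 8.17, 8.03 and 8.16 in Aldara-treated brains. Every Aldara-treated brain lay below every control, at a log2 difference of -0.19 (SE 0.034) and 87.7% of the control level.

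Hapln2 encodes Bral1, the link protein of the matrix at nodes of Ranvier, which is made by oligodendrocytes. Values were 9.40, 9.28, 9.13, 9.32 and 9.42 in control and 9.15, 9.17, 9.03, 9.04 and 9.19 in Aldara-treated brains. The groups overlapped through control replicate 3, which lay below 3 of the Aldara-treated brains, and the log2 difference was -0.19 (SE 0.054).

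Hapln4 encodes Bral2, which binds brevican in nets of the brainstem and cerebellum. It measured 9.82, 9.67, 9.78, 9.79 and 9.81 in control and 9.56, 9.63, 9.55, 9.58 and 9.75 in Aldara-treated brains. Control replicate 2 stood below the other controls and Aldara replicate 5 above the others of its group, so that the groups overlapped at these brains. The log2 difference was -0.16 (SE 0.043). Hapln3, the fourth link protein gene and not among the 10, did not pass the limma test (log2 difference -0.07, SE 0.05, adjusted p = 0.33).

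Tnr encodes tenascin-R, the crosslinker of the net. Its values were 10.44, 10.46, 10.39, 10.44 and 10.54 in control and 10.28, 10.25, 10.29, 10.21 and 10.28 in Aldara-treated brains. The groups were separate and the Aldara-treated brains varied little, with a log2 difference of -0.19 (SE 0.033) and 87.5% of the control level.

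Tnc encodes tenascin-C, a related protein of the developing brain that astrocytes can make again after injury. It measured 7.32, 7.50, 7.54, 7.28 and 7.55 in control and 7.49, 7.58, 7.53, 7.61 and 7.69 in Aldara-treated brains. Control replicates 1 and 4 lay below all other brains, and the other 3 controls overlapped with the Aldara-treated brains. The log2 difference was 0.14 (SE 0.059), on the opposite side of 0 from Tnr.

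Cspg4 encodes NG2, a membrane-spanning proteoglycan that marks oligodendrocyte precursors and pericytes and is not a lectican. Values of 8.36, 8.26, 8.39, 8.38 and 8.33 in control and 8.27, 8.39, 8.42, 8.33 and 8.36 in Aldara-treated brains overlapped throughout. The log2 difference was 0.01 (SE 0.037), and it fell on the other side of 0, at -0.04, when each array was centred on a common median.

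Differences between genes of the same array do not move when a whole array is shifted, and Bcan was compared with its partners in this way. Bcan minus Ncan was between 0.205 and 0.349 log2 units in the control brains and between -0.421 and -0.194 in the Aldara-treated brains. These ranges did not overlap, and the change was -0.59 (SE 0.047). Bcan minus Acan changed by -0.49 (SE 0.047), Bcan minus Hapln2 by -0.48 (SE 0.049) and Bcan minus Tnr by -0.48 (SE 0.053), with no overlap between the groups in any of them. Bcan was known to be among the lowest differences when the genes were chosen, so the direction of these changes followed from that choice. Nothing is concluded from it. Vcan minus its neighbour Hapln1 changed by 0.24 (SE 0.046) with separate groups, whereas Ncan minus its neighbour Hapln4 changed by 0.08 (SE 0.075) and overlapped. Tnr minus Tnc changed by -0.34 (SE 0.069), again with separate groups. These changes are descriptions of chosen genes and were not tested.

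**Figure D2:**
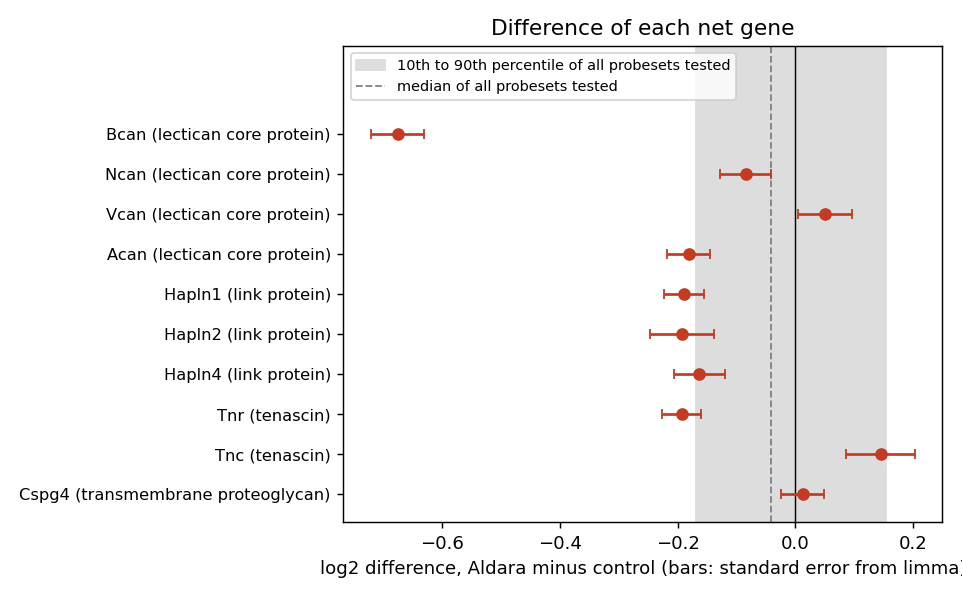
Log2 difference, Aldara minus control, of each net gene (points) with its standard error from limma (bars), over the 10th to 90th percentile (grey band) and the median (dashed line) of 23410 probesets. Bcan lies at -0.68, Acan, Hapln1, Hapln2 and Tnr lie between -0.19 and -0.18 just outside the band, and Ncan, Vcan, Hapln4, Tnc and Cspg4 lie within it.

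At an adjusted p under 0.05 in limma over all 23410 probesets, 6 of the 10 genes were counted lower in Aldara-treated brains (Bcan, Acan, Hapln1, Hapln2, Hapln4 and Tnr) and 0 were counted higher, while 21.0% of all probesets were lower and 12.4% were higher. Groups that did not overlap were found for 4 of the 10 genes, all lower, beside 15.3% of all probesets with every Aldara-treated brain below every control and 10.5% with every one above. Nothing is read from these counts, since this contrast was known when the genes were chosen. The median difference was -0.17 over the 10 genes and -0.04 over all probesets. When each array was centred on a common median, 7 of the genes and 41.0% of all probesets were lower, and when 1 constant was added to the Aldara arrays so that the median difference became 0, 4 of the genes (Bcan, Acan, Hapln1 and Tnr) and 11.8% of all probesets were lower, and 1 of the genes (Tnc) and 16.4% of all probesets were higher.

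**Figure D3:**
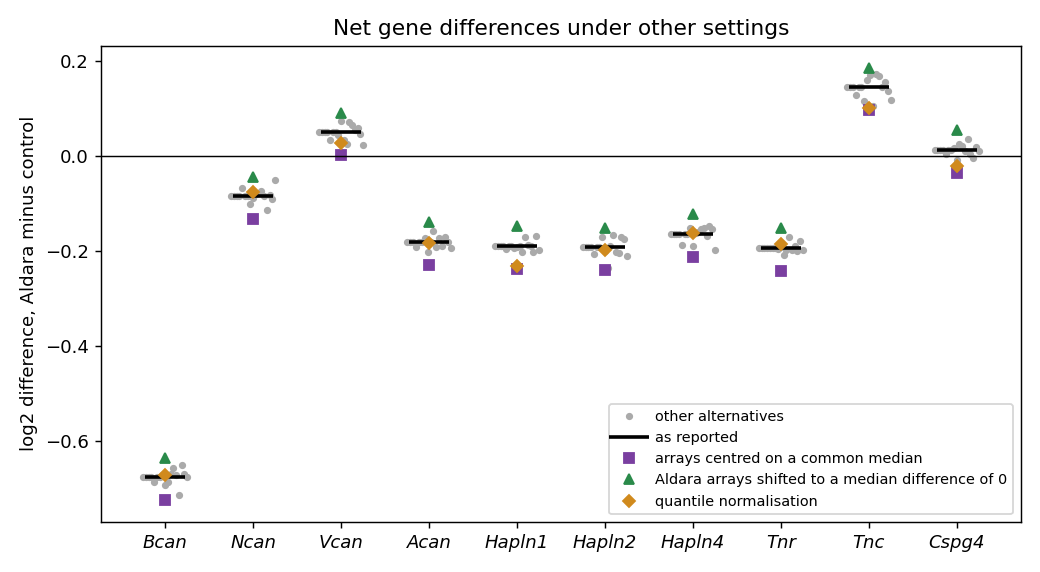
Log2 difference of each net gene as reported (black line) and under other scalings (coloured symbols) and all other alternatives, including the removal of single brains (grey points). Bcan stays between -0.72 and -0.63, and Cspg4 crosses 0.

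Genes that build, cut or bind the same matrix were then read from 6 lists of 69 genes, of which 68 had a probeset of their own. In limma 18 of these 68 (26.5%) fell and 11 (16.2%) rose in Aldara-treated brains, beside 21.0% and 12.4% of all probesets, and their median difference was -0.05. With only probesets at or above the median mean level tested, 35.1% of them were lower and 17.6% higher. Nothing is read from the list shares. The list genes Lyve1, Chst12, Adamts4, Ptprf, Rtn4rl1 and Rtn4rl2 are named below although they lie outside the rule for named genes, having been chosen after their values were seen.

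Among 10 other proteins of nets and brain matrix, 2 fell, 2 rose and 6 did not pass, with a median of -0.05. Nptx1, the neuronal pentraxin that gathers AMPA receptors at synapses, fell by 0.21 on the log2 scale (SE 0.03, limma adjusted p = 2.2e-04), and Crtac1, a secreted matrix protein, fell by 0.19 (SE 0.05, adjusted p = 0.0097). The small leucine-rich proteoglycans moved the other way, with Dcn (decorin) higher by 0.86 (SE 0.06, adjusted p = 1.1e-06) and Bgn (biglycan) higher by 0.61 (SE 0.05, adjusted p = 3.9e-06). Both are typical of fibroblasts and vessel walls and are not lecticans.

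Hyaluronan, the backbone of the net, is made at the cell membrane by the Has enzymes and is bound by receptors on many cells. Of 15 measured genes of its synthesis, breakdown and binding, 3 rose, 2 fell and 10 did not pass, with a median of -0.01. The genes that rose were the receptors Stab1 (log2 difference 1.01, SE 0.07, limma adjusted p = 5.5e-07), Cd44 (0.90, SE 0.05, adjusted p = 1.7e-07) and Hmmr (0.22, SE 0.04, adjusted p = 0.0010). Stab1 and Cd44 are abundant on macrophages and other leukocytes. Tnfaip6, which modifies hyaluronan with heavy chains, fell by 0.20 (SE 0.04, adjusted p = 0.0039), and the lymphatic and macrophage receptor Lyve1 fell by 0.15 (SE 0.05, adjusted p = 0.039), a call lost on leaving out any of 7 of the brains (adjusted p 0.0549 to 0.0871). With 1 constant added to the Aldara arrays to bring the median difference to 0, the Lyve1 call was lost too (adjusted p = 0.144). None of Has1, Has2 and Has3 passed.

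The chondroitin sulfate chains of the lecticans are started on the core protein by a linker and then extended. Of 12 genes of chain synthesis 3 fell, 0 rose and 9 did not pass, with a median of -0.05. Chsy3, a chain polymerase, fell by 0.19 (SE 0.04, limma adjusted p = 0.0023), while the linker enzymes Xylt1 and B3gat3 each fell by 0.11 (SE 0.03, adjusted p = 0.020). With the same constant added to the Aldara arrays the calls of Xylt1 (adjusted p = 0.145) and B3gat3 (adjusted p = 0.134) were lost, and B3gat3 was lost too without control replicate 1 (adjusted p = 0.0521). With each array centred on a common median 9 of the 12 fell, beside 41.0% of all probesets, and 1 of the 12 rose without control replicate 4.

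Sulfation and epimerisation decide which proteins the chains bind. Of 12 genes of these steps 3 fell, 2 rose and 7 did not pass, with a median of -0.07. With each array centred on a common median 6 fell, beside 41.0% of all probesets. Papss2, which makes the sulfate donor, fell by 0.39 (SE 0.06, limma adjusted p = 2.7e-04), the uronyl sulfotransferase Ust fell by 0.15 (SE 0.04, adjusted p = 0.0077), and the chondroitin sulfotransferase Chst12 fell by 0.11 (SE 0.04, adjusted p = 0.028). The Chst12 call was lost on leaving out any of 4 of the brains (adjusted p 0.0519 to 0.0622) and with the constant added to the Aldara arrays (adjusted p = 0.163). Both genes that rose belong to dermatan sulfate synthesis, namely the epimerase Dse (log2 difference 0.73, SE 0.07, adjusted p = 1.0e-05) and the sulfotransferase Chst14 (0.27, SE 0.04, adjusted p = 2.2e-04).

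Lecticans are cleaved in the tissue by ADAMTS proteases. Of 8 genes for such proteases and their inhibitor, 3 fell, 2 rose and 3 did not pass, with a median of -0.05. Adamts20 fell by 0.25 (SE 0.04, limma adjusted p = 0.0011), Adamts15 fell by 0.15 (SE 0.04, adjusted p = 0.0074), and Adamts4, a classical aggrecanase and brevican-cleaving enzyme, fell by 0.11 (SE 0.04, adjusted p = 0.041). Adamts1 (0.31, SE 0.09, adjusted p = 0.023) and Adamts9 (0.21, SE 0.05, adjusted p = 0.0088) rose. Adamts9 was read from the brightest of its 6 probesets, and the others are not given 1 by 1. With the mean of its probesets in place of the brightest, the number of matrix genes that rose stayed at 11. The Adamts4 call was lost on leaving out any of 7 of the brains (adjusted p 0.0549 to 0.0983), and the Adamts1 call without control replicate 1 (adjusted p = 0.056) or Aldara replicate 1 (adjusted p = 0.057). Adamts4 also lost its call with the constant added to the Aldara arrays (adjusted p = 0.199).

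Receptors and binding partners included 11 genes, of which 5 fell, 2 rose and 4 did not pass, with a median of -0.08. With each array centred on a common median 8 fell, beside 41.0% of all probesets. Ptprs, the phosphatase that binds chondroitin sulfate on axons, fell by 0.22 (SE 0.03, limma adjusted p = 7.0e-05), and Cntn1, a neuronal adhesion protein that binds tenascin-R, fell by 0.18 (SE 0.02, adjusted p = 1.0e-04). The Nogo receptor homologue Rtn4rl2 fell by 0.18 (SE 0.05, adjusted p = 0.011). Its relative Rtn4rl1 fell by 0.12 (SE 0.04, adjusted p = 0.038) and the phosphatase Ptprf fell by 0.11 (SE 0.04, adjusted p = 0.047), calls that were lost on leaving out any of 6 brains (adjusted p 0.0689 to 0.0925) and any of 8 brains (adjusted p 0.0523 to 0.0998). The list then held 3 genes that fell in place of 5 when control replicate 1, 4 or 5 or Aldara replicate 1, 2 or 4 was left out. It also held 3 with the constant added to the Aldara arrays, where Rtn4rl1 (adjusted p = 0.186) and Ptprf (adjusted p = 0.238) lost their calls. The integrin subunits Itgb1 (0.51, SE 0.04, adjusted p = 2.8e-06) and Itga9 (0.49, SE 0.05, adjusted p = 1.9e-05), which together form a tenascin-C receptor and also occur on leukocytes and vessels, both rose.

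**Figure D4:**
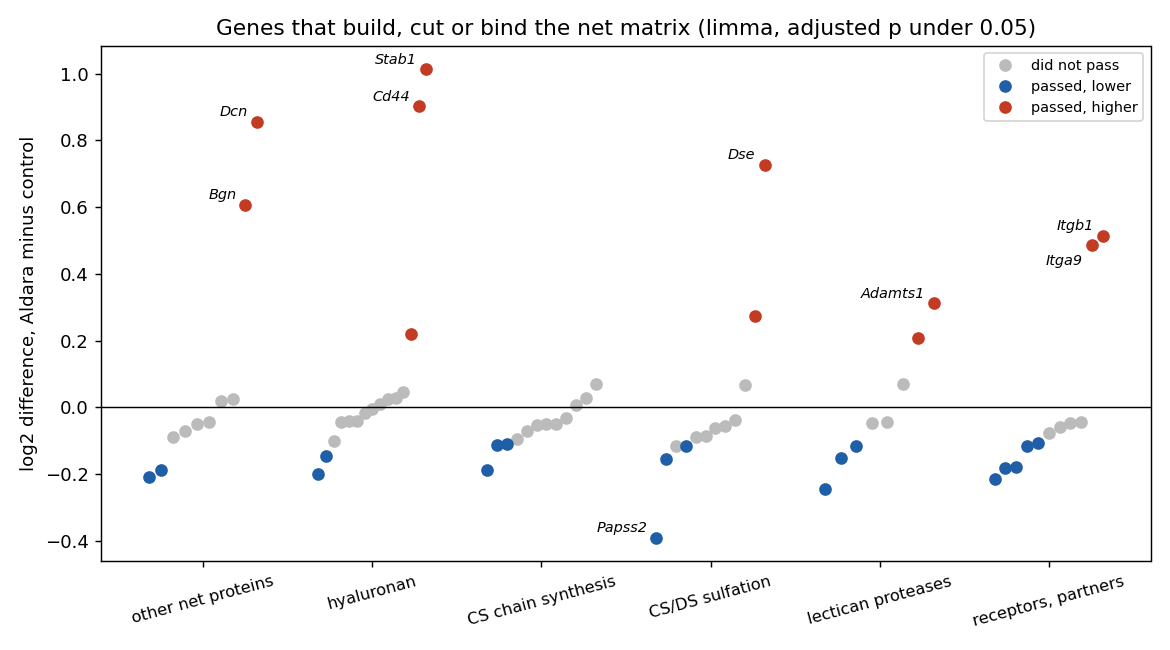
Log2 difference, Aldara minus control, of 68 genes in 6 lists of matrix genes outside the 10, 1 point per gene, coloured by whether limma passed it at an adjusted p under 0.05. The genes that fell lie between -0.39 and -0.11, and those that rose reach 1.01.

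RNA of a whole brain is a mixture, and fewer cells of a type cannot be told apart from less RNA per cell. Markers of cell types that make or carry nets were therefore set beside the net genes, and their part in the result was not tested. Markers given here without a value lie outside the rule for named genes and were chosen after their values were seen. Of 5 measured markers of neurons that carry nets 3 fell (Kcnc1, Kcnc2 and Gad1) and 0 rose, while Pvalb and Syt2 did not pass. Pvalb, the parvalbumin gene and also outside that rule, had a log2 difference of -0.11 (SE 0.05, limma adjusted p = 0.11) with overlapping groups. The mean log2 level of the 5 was 10.43 to 10.52 in control and 10.30 to 10.35 in Aldara-treated brains. With each array centred on a common median all 5 fell, beside 41.0% of all probesets. Kcnc1 and Kcnc2, the potassium channels of fast-spiking cells, fell by 0.19 (SE 0.04, limma adjusted p = 0.0014) and 0.23 (SE 0.05, adjusted p = 0.0022). Of 8 markers of neurons in general 7 fell and 0 rose, with a mean level of 12.13 to 12.18 in control and 12.02 to 12.04 in Aldara-treated brains. Eno2 fell by 0.21 (SE 0.03, adjusted p = 1.8e-04) and Rbfox3 by 0.19 (SE 0.03, adjusted p = 5.7e-04). The number that fell was 4 without control replicate 1 or with the replicate number as a block, and 3 with the constant added to the Aldara arrays. Stmn2, Map2 and Snap25 lie outside the rule for named genes. The Stmn2 call (adjusted p 0.0575 to 0.0774) and the Map2 call (adjusted p 0.0524 to 0.0725) were each lost on leaving out any of 6 brains. Snap25 lost its call without control replicate 1 (adjusted p = 0.0515). Differences of the neuronal markers in both lists lay between -0.23 (Kcnc2) and -0.06 (Syt2). Beside them, Acan, Hapln1, Hapln2, Hapln4 and Tnr lay between -0.19 and -0.16, and Bcan at -0.68.

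Astrocytes, a source of brevican, gave a mixed pattern in which 3 of 10 markers rose and 5 fell, while the mean level was 10.47 to 10.53 in control and 10.52 to 10.62 in Aldara-treated brains. The median difference of the astrocyte list was -0.15, on the other side of 0 from the large rise of Gfap. Gfap, the filament protein of reactive astrocytes, rose by 1.73 (SE 0.04, limma adjusted p = 3.6e-11), as did Aqp4 and Aldh1l1. The glutamate transporter Slc1a2 fell by 0.57 (SE 0.04, adjusted p = 2.1e-07), as did Slc1a3, Gja1, S100b and Fgfr3. Of 8 markers of oligodendrocyte precursors 4 fell (Gpr17, C1ql1, Matn4 and Lhfpl3) and 0 rose, with a mean level of 8.96 to 9.03 in control and 8.84 to 8.91 in Aldara-treated brains. Gpr17 fell by 0.33 (SE 0.07, adjusted p = 0.0020) and Matn4 by 0.17 (SE 0.04, adjusted p = 0.0044), beside the overlapping groups of Cspg4. The Lhfpl3 call was lost without Aldara replicate 1 (adjusted p = 0.050) or with the constant added to the Aldara arrays (adjusted p = 0.0918). Without Aldara replicate 4, or with that constant, 1 precursor marker rose. Of 7 measured oligodendrocyte markers 3 rose (Mag, Cldn11 and Ermn) and 1 fell (Mbp), with a mean level of 10.74 to 10.81 in control and 10.78 to 10.88 in Aldara-treated brains. Cldn11 rose by 0.29 (SE 0.05, adjusted p = 5.4e-04) and Mbp fell by 0.21 (SE 0.03, adjusted p = 7.3e-05), beside the lower values of Hapln2. A second oligodendrocyte marker fell without Aldara replicate 1, and the Mag call was lost with arrays centred on a common median (adjusted p = 0.152).

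Markers of leukocytes, microglia, pericytes and meningeal fibroblasts were read in the same way. Of 8 macrophage and leukocyte markers 7 rose and 0 fell, with a mean level of 6.93 to 7.02 in control and 8.82 to 9.04 in Aldara-treated brains. Ms4a7 rose by 4.04 (SE 0.11, limma adjusted p = 1.1e-10) and Lyz2 by 3.62 (SE 0.09, adjusted p = 4.7e-11). Of 7 measured microglial markers 5 rose and 1, Siglech, fell, with a mean level of 8.54 to 8.70 in control and 8.98 to 9.27 in Aldara-treated brains. Aif1 rose by 1.64 (SE 0.11, adjusted p = 5.7e-07) and Csf1r by 0.84 (SE 0.05, adjusted p = 1.7e-07). Of 8 pericyte markers 3 rose (Kcnj8, Abcc9 and Anpep) and 0 fell, with a mean level of 7.89 to 7.94 in control and 8.04 to 8.11 in Aldara-treated brains. Anpep rose by 0.57 (SE 0.11, adjusted p = 0.0020) and Kcnj8 by 0.17 (SE 0.05, adjusted p = 0.013). The Abcc9 call was lost on leaving out any of 8 brains (adjusted p 0.0505 to 0.104), and that of Kcnj8 under quantile normalisation (adjusted p = 0.063). Of 8 markers of meningeal fibroblasts 3 rose (Lum, Dcn and Islr) and 0 fell, with a mean level of 8.33 to 8.53 in control and 8.55 to 8.68 in Aldara-treated brains. The 5 that did not pass were Col1a1, Col1a2, Col3a1, Pdgfra and Slc6a13, at differences from -0.17 (Slc6a13) to 0.03 (Col3a1). The median difference of the meningeal list was -0.0016. Lum rose by 0.46 (SE 0.06, adjusted p = 1.1e-04), and Dcn is the decorin gene given above among matrix proteins. Without control replicate 1 the meningeal list had 2 markers that fell, and it had 1 without control replicate 2 or Aldara replicate 1, as did the macrophage list without Aldara replicate 4.

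**Figure D5:**
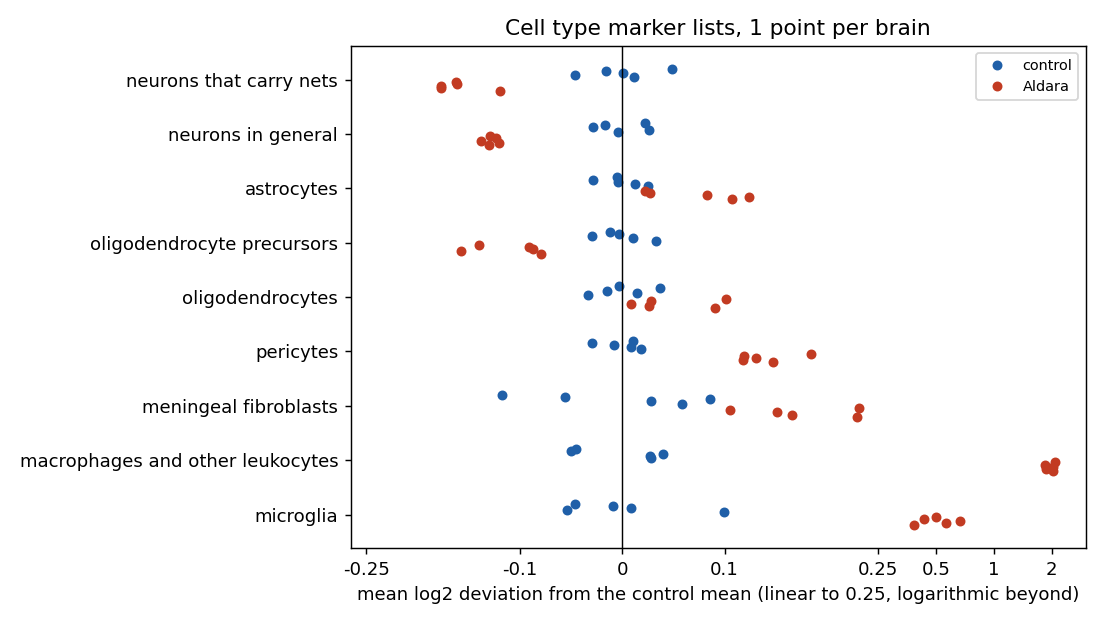
Mean log2 deviation from the control mean of 9 lists of cell type markers, 1 point per brain, on an axis that is linear to 0.25 and logarithmic beyond. Both neuronal lists and the precursor list lie lower in all 5 Aldara-treated brains than in all 5 controls, and the macrophage, microglial, pericyte and meningeal lists lie higher.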

How the data were processed

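RNA (1 µg) from 10 perfused mouse brains was measured on the Affymetrix Mouse Gene 1.0 ST design, with 1 array per brain. The authors background-corrected, normalised and summarised the arrays by RMA in GeneSpring GX, and the deposited values are log2 intensities per probeset, from 4.73 to 14.56. RMA compresses fold changes of dim probesets, and no detection calls were used here. Arrays correlated at 0.995 to 0.999 within and 0.980 to 0.988 between groups, array medians were 8.10 to 8.14 in control and 8.16 to 8.19 in Aldara-treated brains, and precision was limited by 5 arrays per group. The samples are labelled as biological replicates and the study gives 5 mice per group, so differences were tested against the spread between mice.

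Symbols came from the platform annotation. Of 28856 probesets, 21789 carried 1 symbol, 1621 several and 5446 none. The 23410 with a symbol were fitted in R 4.3.3 with limma 3.58.1 (lmFit and eBayes, 5 against 5, no covariate), with Benjamini-Hochberg adjustment over all of them and a threshold of 0.05. A gene of a list was read from its brightest probeset with 1 symbol. The rule for named genes took every member, Hapln3, up to 4 genes of smallest p in each of the 6 matrix lists and up to 2 in each of the 9 cell marker lists. The members and the lists were chosen with earlier results of these data known. Standard errors of differences within an array came from the spread of the 5 brains in each group. Alternatives covered scaling, probesets tested, a filter on dim probesets, the variance model, an unpaired t-test named in the study's methods, the replicate number as a block and the removal of each brain. The fit was tested on simulated data. Promoter windows and gene neighbours were taken from RefSeq (GRCm38.p6). The array values name no genome build, so no coordinates of probesets are given.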

Additional observations from a re-analysis of the deposited data

Results flagged for a closer look

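In groups of 5 brains, a gap test (Dixon) was applied to 85 genes in 170 groups, of which 11 had 1 brain set apart. Chance alone gives about 1 in 20 such groups. Among the 10 net genes it marked Hapln4, where control replicate 2 measured 9.67 against 9.78 to 9.82 in the other controls. Among matrix genes, control replicate 4 measured 8.79 for Chsy3 (others 8.91 to 8.96) and 9.44 for Ptprf (others 9.26 to 9.29), and control replicate 3 measured 9.11 for Chst12 (others 8.958 to 9.003) and 7.69 for Itga9 (others 7.78 to 7.79). Among cell markers, control replicate 5 measured 11.97 for Slc1a3 (others 11.86 to 11.88) and 7.17 for Ptprc (others 6.87 to 6.94), control replicate 1 measured 9.26 for Gfap (others 9.40 to 9.44), and control replicate 3 measured 11.06 for Mag (others 11.13 to 11.15). In the Aldara group, replicate 5 measured 8.28 for Kcnj8 (others 8.08 to 8.14) and 7.47 for Ccr2 (others 6.71 to 6.86).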

How the results depend on the processing

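Bcan, Hapln1 and Tnr were counted lower under all 20 alternatives that measured them, and Acan under all 19. The number of net genes counted lower (6) was 7 with arrays centred on a common median, 4 with a constant added to the Aldara arrays that set the median difference to 0 (the shift), 5 with only probesets at or above the median mean (which drops Acan and Tnc, and where 35.1% of all probesets were lower), and 6 to 7 on leaving out single brains (where 17.6% to 20.4% of all probesets were lower). The number counted higher (0) became 1, Tnc, under the shift. Of the matrix genes, 18 fell, and this became 32 under centring and 11 under the shift, while the 11 that rose became 14 under the shift and 7 with only the brighter probesets, fewer genes being tested there; on leaving out single brains 12 to 17 fell and 10 to 12 rose. Over all probesets, 4926 fell and 2901 rose, against 9606 and 2299 under centring, which moved the median difference to -0.09, and 2760 and 3833 under the shift. The cause of the different counts under other scalings was not tested. The Tnr difference was -0.24 under centring. The correlation of same-numbered deviations was -0.11 to 0.25 over 5 pairs. Differently numbered brains were not compared, so these values cannot decide whether replicate numbers pair the brains. With the replicate block 6 net genes and 15 matrix genes were lower and 11 matrix genes were higher, beside 18.9% of all probesets lower and 11.5% higher. Of cell markers 18 were lower and 24 higher. Among matrix genes the limma calls of Xylt1 (adjusted p = 0.0529), Adamts4 (0.0725), Ptprf (0.078) and Rtn4rl1 (0.0648) were lost with the block. The t-test of the study's methods gave 6 net genes lower, beside 19.2% of all probesets, and 15 matrix genes lower and 10 higher. It lost the calls of Lyve1 (t-test adjusted p = 0.0733), Adamts1 (0.0653), Adamts4 (0.0597), Ptprf (0.0646), Rtn4rl1 (0.0558) and the pericyte marker Abcc9 (0.0858). B3galt6, not called as reported, was called in the t-test (t-test adjusted p = 0.0333) and in limma under centring (adjusted p = 0.00347). Every member had 1 probeset, so reading each by itself gave nothing further. No deposited detection call says how far dim probesets such as Acan lie above background.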
